A study of Mus musculus with 23 samples.

Results

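The genes described here encode the protein subunits of the mouse cytosolic ribosome, followed through 3 populations of hippocampal neurons with and without a conditional knockout of Slm2 (gene symbol Khdrbs3), an RNA-binding splicing regulator. Members were taken by their official symbols: every protein-coding gene named Rps, Rpl or Rplp followed by a number, with the letters that mark variants and copies, and Rpsa; pseudogenes were not taken. This gave 82 of 45706 gene IDs in the deposited count table, 31 for the small subunit and 51 for the large subunit, on 19 chromosomes. Fau, Rack1, Rps3a1 and Rpl36al also encode subunits or subunit copies but fall outside the naming rule.

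The libraries were made from poly(A) RNA of the hippocampus and are labelled CamK, Grik and SST. CamK comprised 4 Slm2 WT and 3 Slm2 cKO libraries and Grik 4 of each genotype, both labelled excitatory pyramidal cells. SST, labelled somatostatin interneurons, comprised 4 of each genotype. No treatment is named for any of the 23 libraries. The way the cells or their RNA were isolated, the driver lines, the part of Slm2 deleted, and the sex and age of the mice are not given in the sources used here. The labels do not say that replicates came from separate mice, so each p-value measures only the spread between these libraries.

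Ribosomal proteins assemble with ribosomal RNA into a small subunit, which decodes the mRNA, and a large subunit, which forms the peptide bond. Their mRNAs are known as 5′ terminal oligopyrimidine (TOP) mRNAs: transcription starts at a C within a run of C and T, and the mTOR kinase, through LARP1 and related proteins, controls how well such mRNAs are translated. In neurons, ribosomal protein mRNAs are also among the transcripts found in dendrites and axons. Rpl22, a member that differed between all 3 WT groups below, is in addition the protein tagged in mouse lines made for ribosome capture. Which method was used for these libraries is not given, and whether reads of a tagged copy enter the Rpl22 counts, and so its levels and its ratio to Rpl22l1, was not tested.

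Start sites of members that the results turn on are shown first, since the C and T run at the start is what the family is known for. Rps14, Rps29 and Rpl29, also named below, are among the members without a matched start and are not shown. Each stretch holds 15 bases before the RefSeq start and 15 bases from the start on, in the direction of transcription (assembly GRCm38.p6). Capitals mark its longest run of C and T. In Rpl7l1 and at the upstream start of Rpl22 a later run is equally long, and the first is marked. Rpl22 and Rps21 each have a pair of annotated starts.
Rpl27a, chr7:109519180-109519209, plus strand: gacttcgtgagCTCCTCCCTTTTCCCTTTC
Rps27, chr3:90213634-90213663, minus strand: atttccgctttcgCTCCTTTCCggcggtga
Rplp2, chr7:141447636-141447665, plus strand: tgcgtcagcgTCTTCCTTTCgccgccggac
Rpl31, chr1:39367836-39367865, plus strand: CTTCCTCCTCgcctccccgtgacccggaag
Rps21, upstream start, chr2:180257364-180257393, plus strand: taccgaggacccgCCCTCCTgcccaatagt
Rps21, downstream start, chr2:180257434-180257463, plus strand: ggacaagtgagcaggtaggCCTCggtgcgg
Rpl41, chr10:128549154-128549183, minus strand: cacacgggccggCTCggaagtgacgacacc
Rplp0, chr5:115559452-115559481, plus strand: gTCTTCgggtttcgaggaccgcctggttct
Rpl22l1, chr3:28805493-28805522, plus strand: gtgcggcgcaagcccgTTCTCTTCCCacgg
Rpl22, upstream start, chr4:152324421-152324450, plus strand: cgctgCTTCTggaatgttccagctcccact
Rpl22, downstream start, chr4:152325711-152325740, plus strand: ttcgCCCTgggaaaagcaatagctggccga
Rpl7l1, chr17:46782642-46782671, minus strand: gtgaggCTgcgcaagcgcagtagctgaagc

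In these stretches the marked run was 19 bases long in Rpl27a, 9 in Rps27, and 10 in Rplp2, Rpl31 and Rpl22l1. Not every marked run crosses the annotated start. It ends before the start in Rpl31, Rpl41, Rplp0, Rpl7l1 and both stretches of Rpl22. The marked run begins after the start in Rpl22l1 and at the downstream start of Rps21. The run was 7 and 4 bases at the annotated starts of Rps21, 5 and 4 at those of Rpl22, 5 in Rplp0, 3 in Rpl41 and 2 in Rpl7l1. Among the members printed that were higher in CamK WT in a comparison below, the run ranged from 3 bases in Rpl41 to 19 in Rpl27a. RefSeq promoters were matched for 62 of the 82 members (74 promoters). A run of at least 8 C or T within 50 bases of the start on the transcribed strand was found in 78.4% of them, against 35.7% of all 32851 promoters of the same length. The mirror image, a run of at least 8 A or G, was found in 22.97% and 38.1%. The motif CTTTCC stood on the transcribed strand in 29.7% of member promoters and 4.69% of all promoters, and on the opposite strand in 2.70% and 4.47%; it can lie inside a run of C and T. These matches describe the annotated starts and were not tested as sites in these cells.

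Gene totals ranged from 87612006 to 112993538 reads per library. The highest marker sums followed the population labels. Summed CA1 markers stood at 1118 to 1531 counts per 1000000 gene reads (CPM) in CamK WT and 62.0 to 95.7 CPM across Grik WT. Summed CA3 markers stood at 159 to 189 and 834 to 905 CPM in these groups. Interneuron markers stood at 6000 to 6959 CPM across SST WT against 47.1 to 153 CPM across CamK WT. The CA1 sum was 392 to 406 CPM across SST WT, above Grik WT, with Mpped1 at a mean of 334 CPM in SST WT. Khdrbs3 itself did not follow the genotype label in Grik. It stood at 414 ± 18.0 CPM in the Grik libraries labelled cKO and 336 ± 8.61 CPM in WT (SD, n = 4 each), higher by 0.30 on the log2 scale (edgeR adjusted p 0.499). It was lower in the libraries labelled cKO of CamK, by -0.42 (edgeR adjusted p 0.114), and of SST, by -0.47 (edgeR adjusted p 0.0309). The second genotype is therefore called "labelled cKO", and the letters cKO in a library's name repeat that label only. Its directions in Grik rest on labels that this gene's counts went against, in a difference that was not called. Whether whole-gene counts track the deletion, whose extent is not given, was not tested.

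Summed over members, ribosomal protein genes took 0.690 to 0.929% of all gene reads. The share was 0.866 ± 0.0293% across CamK WT, 0.802 ± 0.0469% across SST WT and 0.747 ± 0.0400% across Grik WT (SD, n = 4 each). Every CamK WT library (0.83 to 0.897%) lay above every Grik WT library (0.703 to 0.795%), while SST WT (0.755 to 0.853%) overlapped both. The libraries labelled cKO stood at 0.811 ± 0.0631% in CamK (n = 3), 0.739 ± 0.0492% in Grik and 0.848 ± 0.0829% in SST (SD, n = 4 each), and each overlapped the WT libraries of its population. Most member transcripts are short: the longest principal transcript had a median of 882 nt, against 2588 nt for all protein-coding genes. When each gene's reads were divided by that length, the members' share was 2.47, 2.18 and 2.37% in CamK, Grik and SST WT, and 2.37, 2.17 and 2.47% in the libraries labelled cKO.

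**Figure D1:**
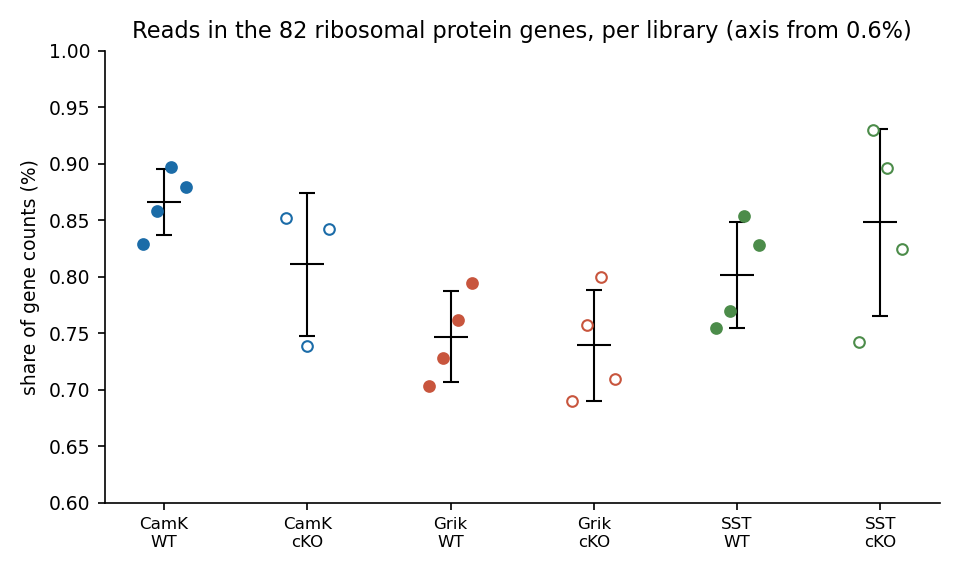
Share of gene reads taken by the 82 ribosomal protein genes in each library, in percent, by population; filled points are WT, open points are labelled cKO, and bars give the mean ± SD. The 4 CamK WT libraries lie between 0.83 and 0.897%, above all 4 Grik WT libraries at 0.703 to 0.795%, and each population's genotypes overlap.

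Per transcript length, the most abundant members over all libraries were Rpl4, a protein lining the exit tunnel, at 697 TPM (reads divided by transcript length and scaled to a total of 1000000), Rpl3, close to the peptidyl transferase centre, at 662, Rps15 at 640, Rplp1, an acidic protein of the stalk that recruits elongation factors, at 633, and Rpl9 at 598. This order is of means over all libraries and differed between groups; in SST libraries labelled cKO, for instance, Rpl3 (713), Rps15 (709) and Rplp1 (707) stood above Rpl4 (689). At the other end, Rpl10l, a retrocopy of Rpl10 known from testis, had 0 reads in all 23 libraries, so 81 members could be tested. Rpl24, Rpl39l and Rpl3l stood below 1 TPM, at 0.202, 0.259 and 0.444. Rpl24 encodes a standard protein of the large subunit, yet it had 0 to 13 reads per library. The overlapping annotation Gm28037 shares 47.0% of the exon bases of Rpl24 and had 0 reads in all 23 libraries, and how the authors counted reads that match both is not given in the sources used here. Rps27l, a near copy of Rps27, stood at 40.8 TPM and Rps20 at 38.9 TPM. The principal transcript of Rps20 is 3706 nt long. Principal transcripts of more than 1 length are annotated for 35 members, and their per-length levels depend on the one chosen.

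Members deviated together from library to library within groups. In 12 of the 23 libraries, named here after their values were seen, at most 5 or at least 73 of the 81 tested members lay above their group's mean. Only 4 members lay above it in Grik WT 3, Grik cKO 3, Grik cKO 4 and CamK cKO 5, 5 in SST cKO 4 and 2 in SST WT 3. At the other extreme 78 lay above it in Grik cKO 2, 77 in CamK WT 4, Grik WT 6 and SST cKO 5, 74 in CamK cKO 4 and 73 in Grik cKO 1. Over all genes tested, 44.6 to 55.2% lay above the group mean in any library. The median deviation of the members ranged from -0.12 to 0.15 on the log2 scale. It had the same sign as that of other genes with transcripts of at most 1000 nt in 22 of 23 libraries, and as that of nuclear-encoded oxidative phosphorylation genes in 20. For translation factors, whose products also serve the ribosome, the sign was shared in 13 of 23. The median SD of a member within its group was 0.122 on the log2 scale, against 0.210 for all genes tested. These sets were not matched for level, so the medians do not show that the family is steadier than genes of like level. Rpl39l, Rpl24 and Rpl3l, which have few reads, had SDs of 1.15, 0.884 and 0.762.

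**Figure D2:**
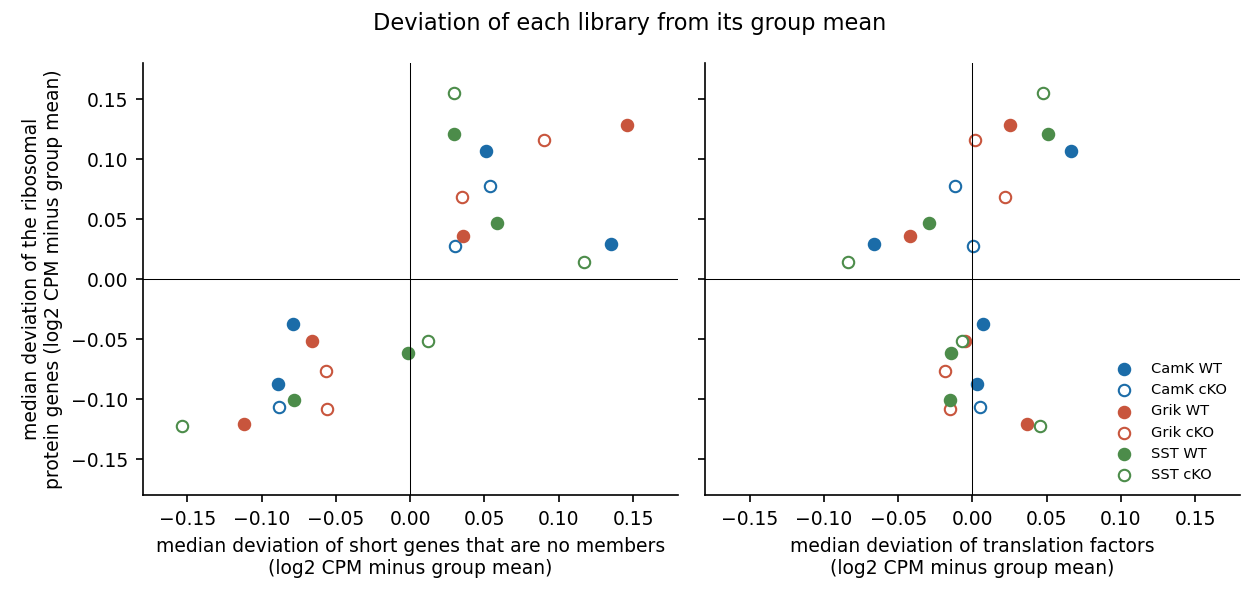
Median deviation of each library from its group mean (log2 CPM) for ribosomal protein genes, on the vertical axes, against other genes with short transcripts (left) and translation factors (right); filled points are WT and open points labelled cKO. Members range from -0.12 to 0.15 and share the sign of short genes in 22 of 23 libraries and that of translation factors in 13.

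The comparison of CamK WT with Grik WT, whose markers are those of CA1 and CA3 pyramidal cells, asked how the family differs between excitatory neurons. Of the 81 members tested, 26 were higher and 2 were lower in CamK WT (edgeR, Benjamini-Hochberg adjusted p below 0.05 over 18823 genes). That is 34.6% of members, against 42% of all genes called, 20.9% higher and 21.1% lower. The members' calls thus lay almost entirely in the higher direction, with 73 of 81 above 0 and a median log2 difference of 0.14 (all genes 0.01). Small-subunit genes contributed 12 higher calls of 31, and large-subunit genes 14 higher and 2 lower of 50. The groups did not overlap for 15 members that were higher and 2 that were lower, against 18.8 and 19.5% of all genes.

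Rps27, a zinc-binding protein of the small subunit, gave the largest called difference of this comparison. Its level was 46.5, 50.5, 54.8 and 57.6 CPM across CamK WT and 29.1, 30.4, 34.2 and 41.5 CPM across Grik WT. The lowest CamK WT library lay above the highest Grik WT library. The difference was 0.63 on the log2 scale (SE 0.11, edgeR adjusted p 8.43e-05). Rps29, another zinc-binding small-subunit protein, stood at 76.1, 76.9, 94.2 and 95.4 CPM against 52.4, 54.3, 63.1 and 73.0 CPM, also without overlap, a difference of 0.50 (SE 0.12, edgeR adjusted p 0.00186). Rps21 stood at 67.2 to 81.4 CPM against 49.4 to 63.7 CPM, a difference of 0.42 (SE 0.11, edgeR adjusted p 0.00286). Rpl41, a peptide of the subunit interface and the shortest protein of the ribosome, stood at 96.6, 113, 132 and 139 CPM across CamK WT and 70.5, 78.7, 90.8 and 105 CPM across Grik WT. The lowest CamK WT value of Rpl41 fell within the Grik WT range, and its difference was 0.48 (SE 0.13, edgeR adjusted p 0.00481).

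The 2 members that were lower in CamK WT were Rpl22 and Rplp0. Rplp0 is the base of the stalk and binds the ribosomal RNA. It stood at 116, 117, 119 and 130.1 CPM across CamK WT and 126, 142, 150.1 and 153 CPM across Grik WT. Only the lowest Grik WT library fell inside the CamK WT range, and the difference was -0.24 (SE 0.07, edgeR adjusted p 0.0054). Rpl22, a surface protein of the large subunit that cells can do without, stood at 61.4, 62.9, 68.6 and 73.8 CPM across CamK WT and 80.2, 80.4, 80.6 and 86.7 CPM across Grik WT. The groups did not overlap, and the difference was -0.30 (SE 0.09, edgeR adjusted p 0.00812). Both calls were lost with library totals left unscaled, at -0.21 (edgeR adjusted p 0.091) for Rpl22 and -0.15 (edgeR adjusted p 0.07) for Rplp0.

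The members' differences in this comparison varied with transcript length, whose part in them was not tested. All 41 members with transcripts up to 882 nt lay above 0, with a median of 0.21 and 17 higher calls, while the 40 longer members had a median of 0.09 with 9 higher and 2 lower calls. Among 829 short genes outside the family the median was 0.22, with 281 higher and 90 lower. With exon length entered as an offset for each library, 7 members were higher and 5 lower in CamK WT, against 41.1% of all genes called under the same setting, and the members' median was 0.01. Of the 28 calls 9 were kept: Rps27, Rps29, Rps21, Rpl41, Rpl31, Rpl37a and Rplp2 higher, and Rpl22 and Rplp0 lower. Rps27 then stood at 0.43 and Rplp0 at -0.35. The new calls with this offset were Rpl15 at -0.16, Rpl6 at -0.21 and Rps4x at -0.26, all lower.

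Non-neuronal markers also differed between these groups. Their summed level was 156 to 247 CPM across CamK WT and 751 to 1005 CPM across Grik WT, all 20 lay below 0, and 15 were called lower. With the non-neuronal score as a covariate 3 members were called, Rps27, Rps21 and Rpl31, all higher, while the share of all genes called was 21.7%. In bulk RNA a smaller number of cells of a type and less RNA per cell cannot be told apart. The call count also rested on individual libraries, falling from 28 to 15 without CamK WT replicate 4, 18 without CamK WT replicate 5 and 18 without Grik WT replicate 3. Those fits called 38, 38 and 38.7% of all genes, against 42% with all libraries. Rps27, Rps21 and Rpl31 passed in all 22 settings run, replicates left out included. The share of all genes whose calls were kept across settings, or with the length offset, is not given here. Counts of kept calls, here and below, thus describe the members only. Rpl31 is a protein at the tunnel exit, and stood at 92.7 to 103 CPM across CamK WT against 69.2 to 84.8 CPM across Grik WT.

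**Figure D3:**
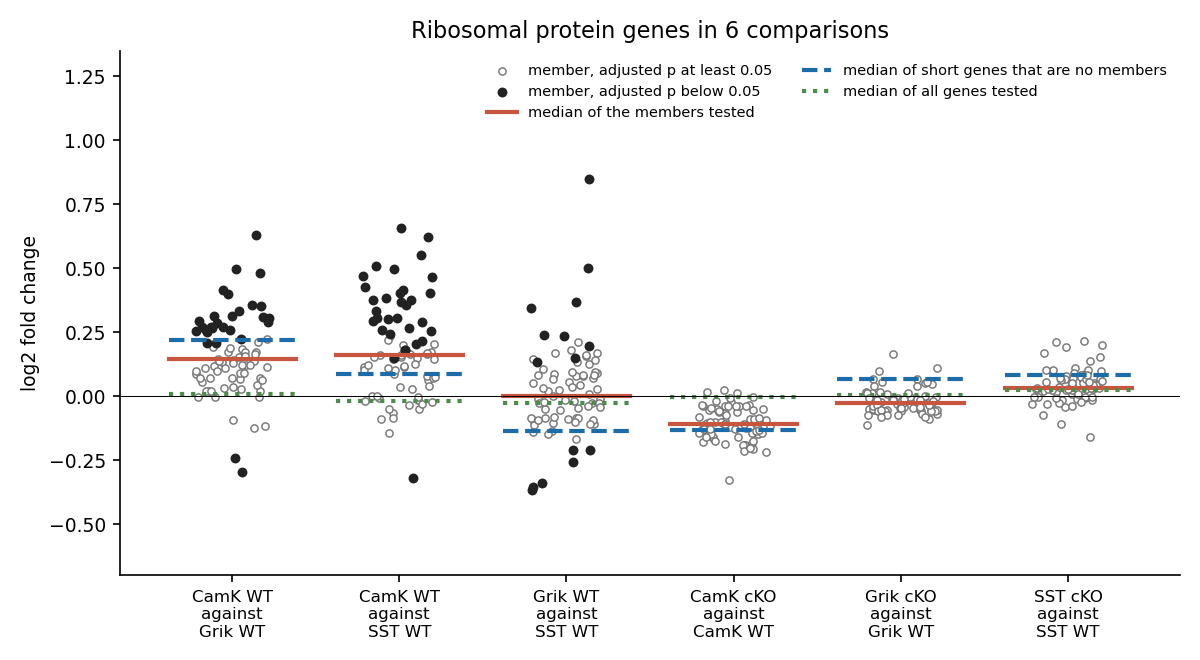
Log2 fold changes of tested ribosomal protein genes in each comparison, with members past the edgeR threshold as filled points and list medians as lines; Rpl24, Rpl39l and Rpl3l are not drawn. Higher calls outnumber lower ones by 26 to 2 for CamK WT against Grik WT and 31 to 1 for CamK WT against SST WT, and no member is called between genotypes.

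**Figure D4:**
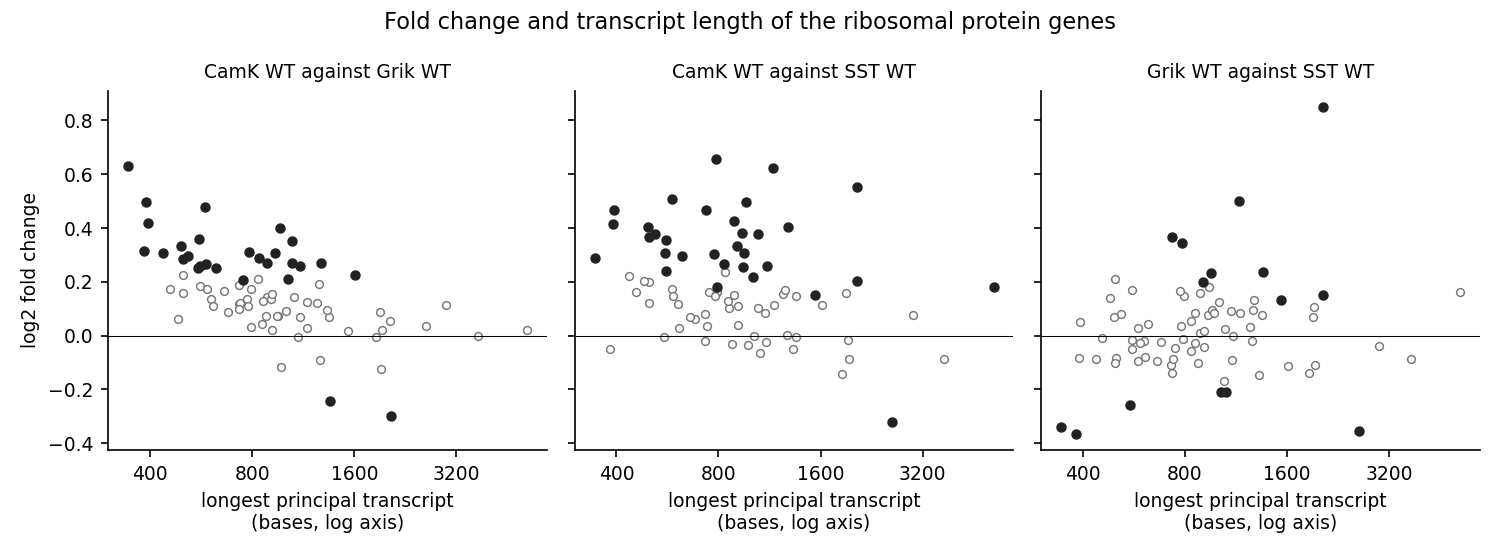
Log2 fold change of each ribosomal protein gene against its longest principal transcript length (nt, log axis); Rpl24, Rpl39l and Rpl3l are not drawn. For CamK WT against Grik WT all 41 members up to 882 nt lie above 0.

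The contrast of CamK WT with SST WT set excitatory neurons against interneurons. Of 81 members 31 were higher and 1 was lower in CamK WT, against 60.1% of all genes called, 29.5% higher and 30.5% lower. The median difference was 0.16 (all genes -0.02) and 66 of 81 members lay above 0. The small subunit gave 14 higher calls of 31 and the large subunit 17 higher and 1 lower of 50. The groups did not overlap for 25 members that were higher and 2 that were lower, against 26.2 and 27.7% of all genes. These comparisons share the CamK WT, Grik WT and SST WT libraries among them, so their values stand side by side and are not independent.

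Rps14, a platform protein of the small subunit whose haploinsufficiency underlies the anaemia of the 5q deletion, stood at 110.2, 110.3, 129 and 131 CPM across CamK WT, 87.9, 90.8, 100 and 108 CPM across Grik WT, and 66.3, 72.4, 82.1 and 83.6 CPM across SST WT. No library of these 3 groups overlapped another group's range. The difference of CamK WT from SST WT was 0.66 (SE 0.09, edgeR adjusted p 7.22e-07), and that of Grik WT from SST WT was 0.35 (SE 0.09, edgeR adjusted p 0.00187). Rpl27a, a large-subunit protein with the long C and T run printed above, stood at 95.6, 101, 107 and 107 CPM across CamK WT, 88.6, 89.3, 97.9 and 101 CPM across Grik WT, and 60.1, 61.9, 69.9 and 74.8 CPM across SST WT. All 8 excitatory libraries lay above all 4 SST libraries. Its difference from SST WT was 0.62 in CamK WT (SE 0.08, edgeR adjusted p 3.4e-07) and 0.50 in Grik WT (SE 0.08, edgeR adjusted p 9.22e-06).

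Rpl41 was higher in CamK WT than in SST WT by 0.51 (SE 0.13, edgeR adjusted p 0.00183), with SST WT at 74.8 to 94.1 CPM and every CamK WT library above that range. This call was lost with the non-neuronal score as a covariate (edgeR adjusted p 0.23). Rpl29, a large-subunit protein also described as a heparin-binding protein, stood at 84.8, 88.6, 92.6 and 105 CPM across CamK WT, 75.8, 89.4, 89.5 and 91.9 CPM across Grik WT and 62.5, 66.3, 68.2 and 71.8 CPM across SST WT. The excitatory libraries again all lay above the SST libraries. Rpl29 differed from SST WT by 0.47 in CamK WT (SE 0.08, edgeR adjusted p 2.15e-05) and 0.37 in Grik WT (SE 0.08, edgeR adjusted p 0.000384).

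Rpl7l1 was the single member that was lower in CamK WT. It is the mammalian relative of a yeast assembly factor that occupies the site of Rpl7 on the precursor particle. Its level was 57.0, 57.8, 61.2 and 67.9 CPM across CamK WT, 57.4, 57.8, 61.3 and 61.6 CPM across Grik WT and 70.5, 73.1, 75.8 and 85.0 CPM across SST WT. Every SST library lay above all 8 excitatory libraries. The difference from SST WT was -0.32 in CamK WT (SE 0.07, edgeR adjusted p 0.000504) and -0.35 in Grik WT (SE 0.07, edgeR adjusted p 0.000179).

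By transcript length, the members' medians for this contrast were 0.18 up to 882 nt and 0.13 above it. The 829 short genes outside the family had a median of 0.09, and 29 of the 32 calls were kept with the length offset. The part of length in these values was not tested. Non-neuronal markers were again lower in CamK WT, with 17 of 20 called and SST WT at 376 to 813 CPM summed. With the non-neuronal score as a covariate 13 members were called, 12 higher and 1 lower, at a median of 0.17, and 39.1% of all genes were called. Those 13 passed in all 22 settings, and 25 passed in all but that covariate, with no matching share over all genes given.

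Between Grik WT and SST WT the family did not lean to either side. Of 81 members 9 were higher and 6 were lower in Grik WT, against 57.3% of all genes called, 28.1% higher and 29.2% lower. The members' median was 0.00 (all genes -0.03), with 41 members above 0. Non-overlapping groups were found for 7 higher and 3 lower members, against 25.8 and 26.6% of all genes. The large subunit held 7 of the 9 higher and 5 of the 6 lower calls. This split depended on scaling. With library totals left unscaled it was 4 higher and 18 lower, with 58.6% of all genes called, the all-gene median at -0.16 and the members' median at -0.13. With the length offset it was 24 higher and 3 lower, with 58.1% of all genes called.

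Among called members of this comparison Rpl22 had the largest difference; Rpl39l, Rpl24 and Rpl3l had larger fitted values (-1.59, -1.49 and -0.99) on few reads and were not called. It stood at 80.2, 80.4, 80.6 and 86.7 CPM across Grik WT, 61.4, 62.9, 68.6 and 73.8 CPM across CamK WT and 42.8, 44.5, 45.2 and 49.4 CPM across SST WT. The order Grik, CamK, SST held without overlap between any pair of groups. Rpl22 was higher by 0.85 in Grik WT than in SST WT (SE 0.09, edgeR adjusted p 8.69e-09) and by 0.55 in CamK WT than in SST WT (SE 0.09, edgeR adjusted p 7.45e-06). The calls that passed in all 22 settings for Grik WT against SST WT were Rpl22, Rpl27a, Rpl29 and Rps14, all higher, and Rpl7l1, lower.

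Rpl36, a small protein of the large subunit, was lower in Grik WT than in SST WT. It stood at 30.4, 38.2, 40.9 and 41.4 CPM against 43.8, 45.8, 47.3 and 57.4 CPM, without overlap. The difference was -0.37 (SE 0.12, edgeR adjusted p 0.00994), and the call was lost without Grik WT replicate 3 (edgeR adjusted p 0.06) or SST WT replicate 1 (edgeR adjusted p 0.057). Rps27 was lower as well, at -0.34 (SE 0.11, edgeR adjusted p 0.0135), with SST WT at 38.0, 40.7, 41.5 and 51.0 CPM. The highest Grik WT library of Rps27, at 41.5 CPM, lay within the SST WT range, and the call was lost without Grik WT replicate 3 or 4 or SST WT replicate 5. Over the 3 WT groups Rps27 thus had its highest level in CamK, and SST WT was lower than CamK WT by an edgeR difference of 0.29 (SE 0.11, adjusted p 0.0318). The CamK WT and SST WT ranges overlapped, and with the length offset that difference was 0.15 and no longer called (edgeR adjusted p 0.105).

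Rpl22l1, the near copy of Rpl22 that can replace it in the ribosome, ran the other way between these groups. It stood at 46.2, 50.8, 58.7 and 61.0 CPM across Grik WT and 57.7, 59.0, 61.0 and 81.3 CPM across SST WT. The groups overlapped, and the difference was -0.26 (SE 0.10, edgeR adjusted p 0.0283). That call was lost in 7 settings, among them the length offset (edgeR adjusted p 0.16) and leaving out Grik WT replicate 4 or 5 or SST WT replicate 5, the library at 81.3 CPM. CamK WT stood at 60.9, 63.8, 63.9 and 69.7 CPM, a difference of 0.25 from Grik WT (SE 0.10, edgeR adjusted p 0.0406). With the length offset it was 0.07 and no longer called (edgeR adjusted p 0.587).

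The ratio of Rpl22l1 to Rpl22 per transcript length was 3.62 ± 0.438 across CamK WT, 2.45 ± 0.262 across Grik WT and 5.27 ± 0.593 across SST WT (SD, n = 4 each). Its ranges, 3.22 to 4.12, 2.13 to 2.71 and 4.74 to 6.12, did not overlap. In the libraries labelled cKO it was 3.51, 2.36 and 4.46, in the same order. The size of the ratio depends on the Rpl22 transcript used, since its principal transcripts measure 474 and 2051 nt. With the shortest transcripts it was 0.838, 0.567 and 1.22 in the WT groups, which keeps the order and places Rpl22 above its copy in both excitatory groups. The ratio is a description and was not tested.

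**Figure D5:**
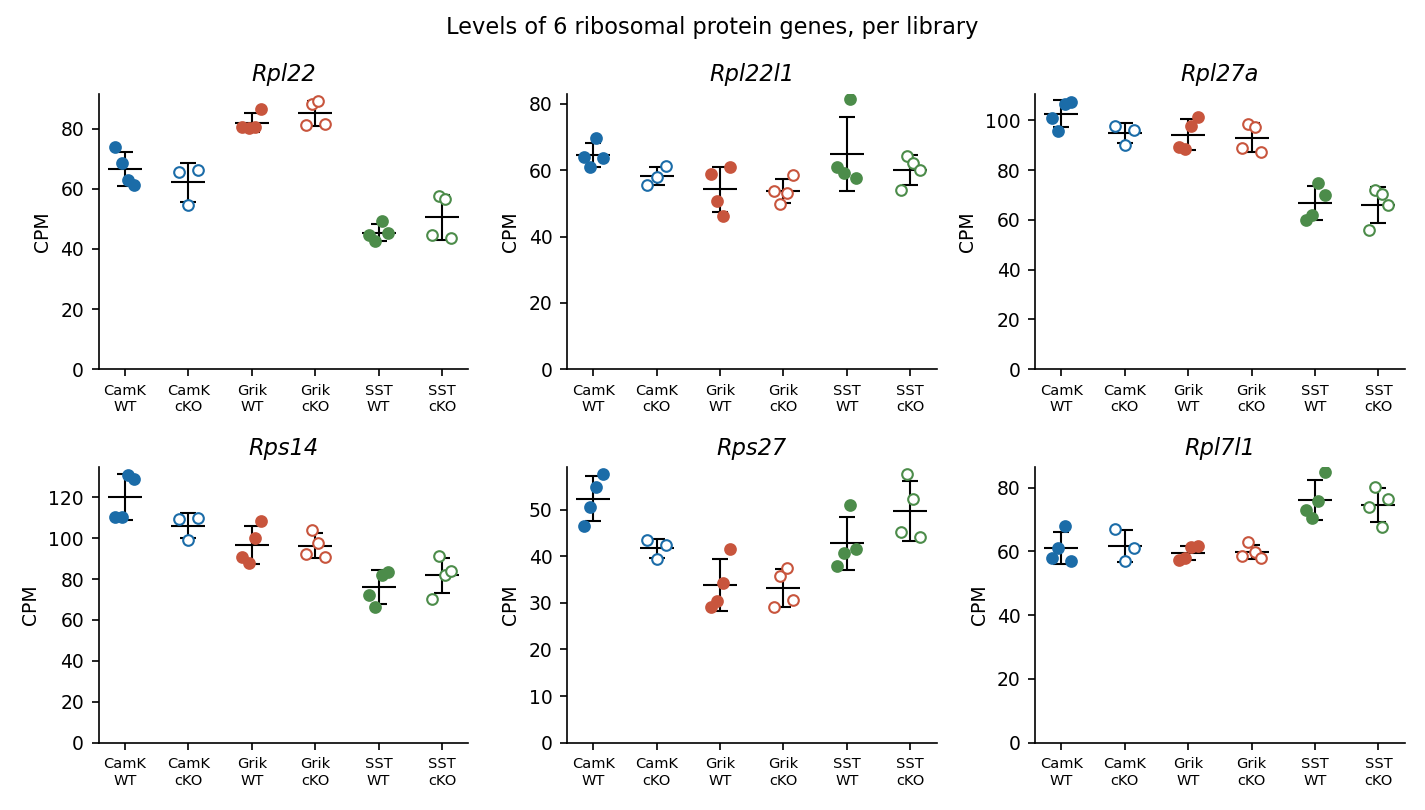
Level in each library (CPM) of 6 ribosomal protein genes by population; filled points are WT, open points are labelled cKO, and bars give the mean ± SD. Rpl22 falls in the order Grik, CamK, SST without overlap in WT, from 80.2 to 86.7 CPM down to 42.8 to 49.4 CPM, while Rpl7l1 is highest in SST.

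The other copies were at lower levels. Rpl7l1 stood at 0.131 of Rpl7 per length across CamK WT, 0.130 across Grik WT and 0.177 across SST WT, and at 0.260, 0.259 and 0.351 with the shortest transcripts. Rps27l, known as a p53-responsive copy of Rps27, stood at 0.113, 0.158 and 0.108 of Rps27. The reads of Rps27l per library spanned 612 to 782 for Grik WT and 612 to 916 for CamK WT. Rpl3l, the copy of Rpl3 known from heart and skeletal muscle, had 1 to 80 reads per library, and Rpl39l, known from testis, had 0 to 37.

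The stalk proteins were compared between populations gene by gene, and differences between the stalk proteins themselves were not tested. Rplp2 stood at 84.5, 86.6, 105 and 107 CPM across CamK WT, 63.9, 67.4, 74.3 and 84.5 across Grik WT, and 63.1, 65.6, 71.4 and 71.5 across SST WT. It was higher in CamK WT than in Grik WT by 0.40 (SE 0.09, edgeR adjusted p 0.0012) and than in SST WT by 0.50 (SE 0.09, edgeR adjusted p 6.39e-05). Rplp0 had its highest mean in Grik WT, with a difference of 0.24 from SST WT (SE 0.07, edgeR adjusted p 0.00419). With the length offset Rplp2 too was higher in Grik WT than in SST WT, by 0.20 (edgeR adjusted p 0.0178). Rplp1 passed in none of the 3 comparisons, with 114 to 139 CPM across CamK WT, 92.6 to 133 across Grik WT and 110.1 to 131 across SST WT.

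Rpl5 and Rpl11 carry the 5S ribosomal RNA into the large subunit and, outside the ribosome, bind the p53 regulator Mdm2. Both were higher in CamK WT than in SST WT, Rpl5 by 0.20 (SE 0.06, edgeR adjusted p 0.00714) and Rpl11 by 0.27 (SE 0.09, edgeR adjusted p 0.0118), and both calls were lost with the non-neuronal covariate. Rpl5 was also higher in Grik WT than in SST WT by 0.15 (SE 0.06, edgeR adjusted p 0.046). Rpl5 stood at 142 to 160.2 CPM across CamK WT, 138 to 152 across Grik WT and 127 to 143 across SST WT, and Rpl11 at 122 to 136, 101 to 123 and 100 to 114. Of the 8 exit tunnel proteins 3 were higher in CamK WT than in Grik WT, 4 were higher than in SST WT, and 1, Rpl4, was higher in Grik WT than in SST WT. These are 37.5, 50 and 12.5% of the list, against 42, 60.1 and 57.3% of all genes called. Rpl4 stood at 405 to 439.8 CPM across CamK WT, 412 to 422 across Grik WT and 374 to 386 across SST WT, so both excitatory groups lay above SST, by 0.15 in CamK WT (edgeR adjusted p 0.0156) and 0.13 in Grik WT (edgeR adjusted p 0.0346). With the length offset the CamK difference was 0.12 and no longer called (edgeR adjusted p 0.0919).

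None of the 4 X-linked members, Rpl10, Rpl36a, Rpl39 and Rps4x, passed in any of the 3 WT comparisons, against 42, 60.1 and 57.3% of all genes. Their log2 differences lay between -0.12 and 0.20. Rpl10, which completes the large subunit late in its maturation, stood at 144 to 159.8 CPM across CamK WT, 141 to 157 across Grik WT and 123 to 156 across SST WT. Rps4x, at 145 to 165, 159.6 to 177 and 143 to 178 CPM, was called lower in CamK WT than in Grik WT with the length offset. The same offset called Rpl10 (0.19, edgeR adjusted p 0.0441), Rpl36a (0.22, edgeR adjusted p 0.00783) and Rps4x (0.19, edgeR adjusted p 0.0255) higher in Grik WT than in SST WT. Rpl36a stood at 44.8 to 50.4, 41.6 to 53.0 and 37.4 to 48.3 CPM. Rpl39, a short peptide in the tunnel wall, stood at 38.2 to 44.2, 32.8 to 46.3 and 33.1 to 48.9 CPM.

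The same population comparisons were repeated between the libraries labelled cKO, which share no library with the WT comparisons. Between CamK and Grik 4 members were higher and 1 lower, against 35.7% of all genes called. All 5 had been called in WT in the same direction (17.9% of the 28 WT calls): Rpl8, Rps16, Rps23 and Rps27 higher and Rpl22 lower. Between CamK and SST 11 were higher and 3 lower, against 56.4% of all genes. Of these 14 calls 11 were shared with WT, 78.6% of the calls in libraries labelled cKO and 34.4% of the WT calls. Between Grik and SST 8 were higher and 10 lower, against 57.9% of all genes, and 10 were shared with WT, 55.6% of the calls in libraries labelled cKO and 66.7% of the WT calls. No member was called in opposite directions in WT and in the libraries labelled cKO. The matching agreement over all genes is not given here, so these shared counts describe the members only. Non-neuronal markers were again lower in CamK, with 13 of 20 called against Grik and 19 of 20 against SST. With the non-neuronal score as a covariate 0 members were called against Grik and 4 against SST, with 22.7 and 38.5% of all genes called. The calls of low-count copies, Rpl39l at 3.90 for CamK and 4.08 for Grik against SST and Rpl3l at -1.81 for Grik against SST, rest on 0 to 37 and 1 to 80 reads per library.

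Rpl22 followed the same order in the libraries labelled cKO, at 81.3, 81.6, 88.4 and 89.2 CPM in Grik, 54.7, 65.7 and 66.1 CPM in CamK and 43.6, 44.6, 56.7 and 57.5 CPM in SST. Grik lay above the other groups without overlap, while CamK and SST overlapped. Grik was higher than SST by 0.75 (SE 0.09, edgeR adjusted p 7.06e-08) and CamK was lower than Grik by -0.45 (SE 0.10, edgeR adjusted p 0.000534). Rpl27a stood at 90.3, 96.2 and 97.8 CPM in CamK, 87.5 to 98.6 CPM in Grik and 55.9, 65.9, 70.5 and 72.2 CPM in SST, with every excitatory library above every SST library. Its difference from SST was 0.52 in CamK (edgeR adjusted p 1.53e-05) and 0.49 in Grik (edgeR adjusted p 1.08e-05). Rpl7l1 was again lower than in SST, by -0.27 in CamK (edgeR adjusted p 0.00472) and -0.32 in Grik (edgeR adjusted p 0.000578). Rpl41, called in both CamK comparisons of WT, differed by 0.10 from Grik and by 0.12 from SST in the libraries labelled cKO and passed in neither. Rps27 was not highest in CamK here: it stood at 39.4 to 43.4 CPM in CamK and 44.0 to 57.6 CPM in SST, without overlap, a difference of -0.26 that was not called (SE 0.12, edgeR adjusted p 0.0836) and was called with the length offset.

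These counts rested on individual libraries. For CamK against Grik the count of 5 became 1 without CamK cKO replicate 4, 8 without replicate 5, 2 without replicate 6 and 3 without Grik cKO replicate 4. Those fits called 28.9, 31.5, 30.3 and 31.5% of all genes, against 35.7% with all libraries. For CamK against SST the count of 14 became 8 without CamK cKO replicate 4, with 49.5% of all genes called, against 56.4%. With library totals left unscaled the split was 10 higher and 1 lower for CamK against Grik, 5 and 10 for CamK against SST, and 3 and 40 for Grik against SST, where the all-gene median moved to -0.21 and the members' median to -0.23. The unscaled fits called 36.2, 56.6 and 59.9% of all genes in that order.

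The genotype comparison, which the series was designed around, gave no call among the members in any population. With edgeR 0 of 81 members passed in CamK, Grik and SST, against 0.0106% of all genes in each, and the counts with DESeq2 and limma-voom were also 0. At an unadjusted edgeR p below 0.05 there were 3 members in CamK, 1 in Grik and 2 in SST, against 7.05, 4.88 and 5.85% of all genes. No member passed in the 3 tests of whether genotype effects differed between populations either, against 0.00531% of all genes for CamK against Grik, 0% for CamK against SST and 0.0106% for Grik against SST. The unadjusted counts of those tests were 0, 7 and 1 members, against 6.5, 7.85 and 3.86% of all genes.

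In CamK the members had values below WT in 76 of 81 cases, with a median of -0.11 (all genes -0.00). Rps27 stood at 39.4, 42.3 and 43.4 CPM in the libraries labelled cKO and 46.5 to 57.6 CPM in WT. Its groups did not overlap, and the difference was -0.33 (SE 0.12, edgeR adjusted p 0.66). Rpl23a, a docking site at the tunnel exit, stood at 60.3, 62.0 and 63.0 CPM against 66.1, 68.5, 71.9 and 75.4 CPM, a difference of -0.19 (SE 0.09, edgeR adjusted p 0.688). Rps24 and Rps14, named because their groups too did not overlap, differed by -0.16 and -0.18. In all, 5 of 81 members had every library labelled cKO below WT, against 3.4% of all genes. No member lay wholly above WT, against 3.35% of all genes.

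Other gene lists lay on the same side in CamK. Of 829 short genes outside the family 647 lay below WT (median -0.13), as did 67 of 78 oxidative phosphorylation genes (-0.11) and 70 of 76 mitochondrial ribosomal protein genes (-0.11), whereas the 39 translation factors had a median of 0.00. None of these lists held a called gene. With the length offset the members' median was -0.06. Non-neuronal markers lay above WT in 18 of 20 cases with a median of 0.58, and their summed level was 245 to 321 CPM in the libraries labelled cKO against 156 to 247 CPM in WT. Their part in the members' values was not tested. One of the 3 libraries, CamK cKO 5, had a member share of 0.738%, below all CamK WT libraries, whereas CamK cKO 4 and 6 at 0.852 and 0.843% lay within the WT range.

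In Grik, where Khdrbs3 went against the label, members had a median of -0.03 with 60 of 81 below WT, while short genes outside the family had a median of 0.07 and 18 of 20 non-neuronal markers lay above WT (median 0.20). Rps15a was the only member without overlap, with a highest value of 137.7 CPM in the libraries labelled cKO and a lowest of 138.4 CPM in WT, against 2.16% of all genes; no member lay above WT without overlap, against 2.43%. Rpl4 and Rps20 had differences of -0.07 and -0.11, and the value of 2.61 for Rpl39l rests on 0 to 37 reads per library. In SST the median was 0.03 (all genes 0.02), with 59 of 81 above WT. There 618 of 829 short genes outside the family (median 0.08) and 17 of 20 non-neuronal markers (median 0.39) also lay above WT, and their part in the members' values was not tested.

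Rpl15, a core protein of the large subunit, had the lowest p of the members in SST. It stood at 104, 112, 112 and 117 CPM in the libraries labelled cKO and 120.3, 123, 123 and 129.9 CPM in WT. The groups did not overlap, and the difference was -0.16 (SE 0.05, edgeR adjusted p 0.833). Rps28 stood at 31.3 to 39.8 CPM against 27.5 to 34.4 CPM, overlapping, a difference of 0.21 (SE 0.11, edgeR adjusted p 0.838). Rpl39l differed by -3.06 on 0 to 13 reads per SST library. Rpl15 and Rpl39l were the only members with all libraries labelled cKO below WT, against 1.28% of all genes, and none lay wholly above WT, against 1.43%.

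Between the genotype effects of CamK and SST the members' median was -0.14, with 73 of 81 below 0. Rps27 had the lowest p, with an effect of -0.33 in CamK and 0.22 in SST, a difference of -0.55 (SE 0.17, edgeR adjusted p 0.597). All 31 small-subunit members lay below 0 here, with a median of -0.18, while 670 of the 829 short genes outside the family lay below 0 as well, with a median of -0.21. For CamK against Grik the members' median was -0.08 and for Grik against SST it was -0.05.

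The neighbouring parts of the translation machinery were compared in the same way in WT. The shares of all genes called to set their counts against are 42, 60.1 and 57.3%. Of 39 translation factors 3 were higher and 6 lower in CamK WT than in Grik WT (median -0.06), 14 and 7 against SST WT (0.04), and for Grik WT against SST WT 14 and 3 (0.08); these are 23.1, 53.8 and 43.6% of the list. Eif1, which guards the choice of the start codon, was higher in CamK WT than in Grik WT by 0.46 (edgeR adjusted p 2.07e-05). Eif2s1 was lower in that comparison, by -0.28 (edgeR adjusted p 0.00351). Eif4a1, the helicase of the cap-binding complex, was higher than in SST WT by 0.76 in CamK WT (edgeR adjusted p 5.7e-11) and 0.66 in Grik WT (edgeR adjusted p 8.15e-10). Eif5a, needed to pass difficult peptide bonds, was higher than in SST WT by 0.59 and 0.58.

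TOP mRNAs of genes outside the members, 22 in the list used, include Rack1, named above as a subunit gene. This list also shares at least Eef2 with the translation factors. It showed 2 higher and 4 lower in CamK WT against Grik WT, 8 and 7 against SST WT, and 7 and 3 for Grik WT against SST WT. These are 27.3, 68.2 and 45.5% of the list. Eef1a1, the elongation factor that brings aminoacyl-tRNA, was higher in Grik WT than in SST WT by 0.47 (edgeR adjusted p 5.26e-06), and Eif3e by 0.56 (edgeR adjusted p 1.06e-06). Cct4 was lower in CamK WT, by -0.29 against Grik WT (edgeR adjusted p 0.00265) and -0.52 against SST WT (edgeR adjusted p 1.41e-06). Vim was lower in the same comparisons, by -1.30 (edgeR adjusted p 8.91e-05) and -2.43 (edgeR adjusted p 4.32e-09). Of 35 ribosome biogenesis genes 6 were higher and 8 lower, 10 and 13, and 10 and 9 in the same order of comparisons, or 40, 65.7 and 54.3%. Ubtf, a transcription factor of ribosomal RNA genes, was higher in CamK WT than in SST WT by 1.06 (edgeR adjusted p 1.55e-12) and in Grik WT by 0.69 (edgeR adjusted p 3.82e-09). Tsr1 was lower in CamK WT than in Grik WT, by -0.35 (edgeR adjusted p 0.000391). Among 20 genes of mTOR signalling and TOP control 5 were higher and 8 lower, 6 and 8, and 4 and 7, or 65, 70 and 55%. Larp1, which binds TOP mRNAs, was lower in CamK WT than in SST WT by -0.69 (edgeR adjusted p 6.95e-08). Tsc2, a brake on mTOR, was lower in CamK WT than in Grik WT by -0.53 (edgeR adjusted p 2.08e-06). Eif4ebp1, of the same list, was higher in CamK WT than in Grik WT by 1.71 (edgeR adjusted p 2.74e-05).

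Mitochondrial ribosomal proteins, encoded by a separate family, gave 39 higher and 3 lower of 76 in CamK WT against Grik WT (median 0.18), 21 and 13 against SST WT (0.04), and 9 and 32 for Grik WT against SST WT (-0.13). For oxidative phosphorylation genes the counts of 78 were 30 and 5 (0.17), 8 and 30 (-0.09), and 0 and 48 (-0.25). The lists had 55.3, 44.7 and 53.9% and 44.9, 48.7 and 61.5% of their genes called. Rps3a1, a small-subunit gene outside the naming rule, was higher in CamK WT than in SST WT by 0.30 (edgeR adjusted p 0.00141) and in Grik WT by 0.21 (edgeR adjusted p 0.025).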

How the data were processed

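RNA-seq libraries were trimmed with Trimmomatic and aligned with STAR to GRCm38, per the submitters' processing notes, which give no versions here. The authors deposited raw read counts per gene for 23 libraries, and the strand setting and counting tool are not given in the sources used here. Rows that name no gene (12.4 to 18.4% of reads) were left out. Counts were fitted with edgeR 4.0.16 (R 4.3.3): its expression filter over 6 groups, TMM scaling, a robust quasi-likelihood fit with 1 coefficient per group, and Benjamini-Hochberg adjustment over 18823 genes at 0.05. TMM factors ranged from 0.930 to 1.14, and the common biological coefficient of variation was 16.3%. Standard errors were taken as the absolute log2 fold change divided by the square root of F. CPM are TMM-scaled.

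Genes were matched to GENCODE M21 (45143 of 45706 IDs) for coordinates and lengths. An exon of 27 members is shared with another gene on the same strand and 19 lie over a gene on the opposite strand. Named pseudogenes exist for 58 members (262 pseudogenes, 0.405 to 0.617% of the reads of both together), so their counts are uncertain where reads match both. Replicates within a group differed by more than sampling noise (chi-square per degree of freedom 8.79 to 215).

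The members and gene lists were chosen with earlier results of these data known. Members are named by rule: the 4 called members with the largest log2 fold change in each direction for each WT comparison (mean CPM of at least 1), the 3 with the lowest p for each genotype comparison, members called in a difference test, the 5 highest and 3 lowest per-length levels, and the stalk, 5S, X-linked and copy lists; in the other gene lists, examples come from the 2 with the lowest p. Members named beyond it (Rpl31, Rpl37a, Rpl6, Rpl8, Rps15a, Rps16, Rps23 and Rps24) were chosen after their values were seen. Alternatives were relative log expression, unscaled totals, TMM without members, 2 other low-count filters, thinning, DESeq2 1.42.0, limma-voom 3.58.1, the compared groups alone, the replicate block, an exon length offset, a non-neuronal covariate and leaving out each library. Some genes are not reported here. The script was tested on simulated data.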

Additional observations from a re-analysis of the deposited data

Results flagged for a closer look

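Among 175 pairs of a measure and a group, 10 held a library far from the rest of its group, where about 8.75 would be expected at 1 in 20 by chance. The number given is the gap from that library to its nearest neighbour as a share of the group's range. SST WT replicate 5 stood apart for Rpl22l1 (0.860), Rps20 (0.865) and Rpl5 (0.897), and SST cKO replicate 5 for Rps4x (0.941) and Rpl7 (0.988). In Grik WT, replicate 6 stood apart for Rpl22 (0.941), replicate 3 for Rpl29 (0.845) and replicate 5 for Rpl3l (0.965), the latter on few reads. The remaining pairs were Rpl15 in CamK WT replicate 5 (0.862) and Rps15 in SST WT replicate 1 (0.838). The causes were not tested.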

How the results depend on the processing

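No named fold change that was called changed sign under any alternative run, while the splits of higher against lower calls did change, and all counts for genotype and for differences of genotype effects stayed at 0, also with each library left out. For CamK WT against Grik WT the 28 calls became 43 (43 higher, 0 lower; all-gene median 0.10) with unscaled totals, 12 with the exon length offset (7 and 5), 12 with the shortest principal transcript (6 and 6; chosen after seeing the data), 12 with the replicate block plus offset (8 and 4) and 3 with the non-neuronal covariate. For CamK WT against SST WT the 32 calls became 13 with that covariate. For Grik WT against SST WT the 15 calls became 27, 31 and 27 with the 3 length settings (24 and 3, 28 and 3, 24 and 3), and the CPM filter gave 6 higher and 9 lower. Over all genes, the CamK WT against Grik WT settings called 43.8, 41.1, 41.1, 39.9 and 21.7% in the order given, against 42% in the main fit. The covariate fit of CamK WT against SST WT called 39.1%, against 60.1%. For Grik WT against SST WT the length settings called 58.1, 58 and 54.4% and the CPM filter 66.7%, against 57.3%.

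Among libraries labelled cKO, the 5 calls of CamK against Grik became 11 with unscaled totals, 21 with limma-voom, 10 with the compared groups alone, 2 with the replicate block and 0 with the covariate. Over all genes these fits called 36.2, 44.4, 43.3, 30.8 and 22.7%, against 35.7% in the main fit. The 14 of CamK against SST became 7 with the groups alone, 25, 24 and 22 with the length settings and 4 with the covariate. Here the shares of all genes called were 52.4, 57.4, 57.1, 53 and 38.5%, against 56.4%. The 18 of Grik against SST became 43 with unscaled totals and 30 with limma-voom, with 59.9 and 62% of all genes called, against 57.9%. The cause of these changes was not tested.

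Leaving out each library gave 15 to 33, 27 to 40 and 12 to 16 calls for CamK against Grik, CamK against SST and Grik against SST in WT, and 1 to 8, 8 to 19 and 16 to 20 among libraries labelled cKO. The same fits called 38 to 41.4, 56.9 to 58.6 and 53.8 to 55.9% of all genes in WT. Among libraries labelled cKO they called 28.9 to 32.8, 49.5 to 56 and 54.6 to 57.3%. The replicate block gave 32, 34 and 12 calls in WT, with 41.8, 59.2 and 53.5% of all genes called. Replicate numbers come from the library titles, which do not say whether equal numbers pair samples. Over 35 same-number pairs the correlation of deviations ran from -0.0999 to 0.138, with 4 above 0.1 and 0 below -0.1. Of 23 libraries 6 correlated best with their own number. No chance level was computed for these values, so they do not settle whether samples are paired. Low counts limit Rpl24, Rpl39l, Rpl3l and Rpl10l.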
